A study of Mus musculus with 9 samples.

Results

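The RNA-seq comparison of Th1 cells without and with Tbx21 is held in 430 genes that the authors listed as regulated by T-bet, with 219 genes lower and 211 genes higher in the knockout. All rows of the positively and negatively regulated lists were used, out of 15274 listed genes and regions in the series. The wild type group (WT) was C57BL/6 T-bet-ZsGreen, and the knockout group (Tbx21-KO) was C57BL/6 Tbx21-/- T-bet-ZsGreen, so both carried the fluorescent reporter of T-bet expression. Each group had 2 libraries, from naive CD4+ T cells that were stimulated through CD3 and CD28 with irradiated, T cell-depleted splenocytes, IL-2, IL-12 and an antibody against IL-4. Reporter-positive cells of both genotypes were then sorted and expanded for a further period under Th1 conditions. No source used here gives the ages of the mice or says whether the libraries came from separate mice.

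Expression is given per gene as 1 FPKM value for each genotype (fragments normalised to transcript length and library size), since the authors merged the duplicates before they deposited the values. The spread between libraries and the depth are therefore unknown, no difference below carries an error or a test, and a gene is said to be higher or lower in a genotype only as listed. Differences are log2((KO + 1)/(WT + 1)) of the FPKM values, so that a negative value means less transcript in the knockout, and the 1 FPKM added to each value understates the difference of weakly expressed genes. In bulk RNA, fewer cells of a type and less RNA per cell cannot be told apart.

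T-bet, the product of Tbx21, is a T-box transcription factor that directs CD4+ T cells to the interferon-gamma-producing Th1 fate and restrains the Th2 fate. Th1 cells defend against intracellular microbes, and their cytokines, surface receptors and migration to inflamed tissue differ from those of Th2 cells. Tbx21 itself was lower in the cells labelled as knockout, at 124 FPKM against 271 FPKM in WT, a difference of -1.12. Transcript thus remained in those cells, and FPKM does not show which exons were read.

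Of the cell type markers, Tbx21, Ifng, Cxcr3 and Il12rb2 were on the positive list, while Cd4, Cd3e, Cd3d and Cd3g were on neither list and so have no value here. Among 9 markers of antigen-presenting cells, H2-Aa, H2-Ab1, H2-Eb1 and Cd74 were higher in Tbx21-KO, with a summed level of 32.5 FPKM in WT and 161 FPKM in Tbx21-KO, and the other 5 were on neither list. Among 8 markers of B and plasma cells, Igj, Pou2af1 and Cd79a were higher and Blk was lower in Tbx21-KO, with summed levels of 13.8 and 67.7 FPKM, and the other 4 were on neither list. A list of 5 markers for CD8 T and NK cells had Cd8a and Nkg7 on the positive side and the other 3 on neither list, summing to 611 FPKM in WT and 61.9 FPKM in Tbx21-KO. Nkg7, which is also on the Th1 list, made most of that sum at 571 and 42.9 FPKM, and Cd8a stood at 39.6 and 19.1 FPKM. The part of such cells in the differences was not tested.

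On the log2(FPKM + 1) scale, 187 of the 430 genes were at least 2-fold lower in Tbx21-KO, or 43.5%, and 180 were at least 2-fold higher, or 41.9%, which makes 85.3% either way. Of the other 63 genes, 60 were at least 2-fold different in the deposited FPKM values, and 3 had a ratio of 1.97 or just above. The median difference was -1.40 over the positive list (50.9% of the listed genes) and 1.27 over the negative list (49.1%). Because the authors chose the genes by their difference, these shares describe the lists and say nothing about the transcriptome.

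**Figure D1:**
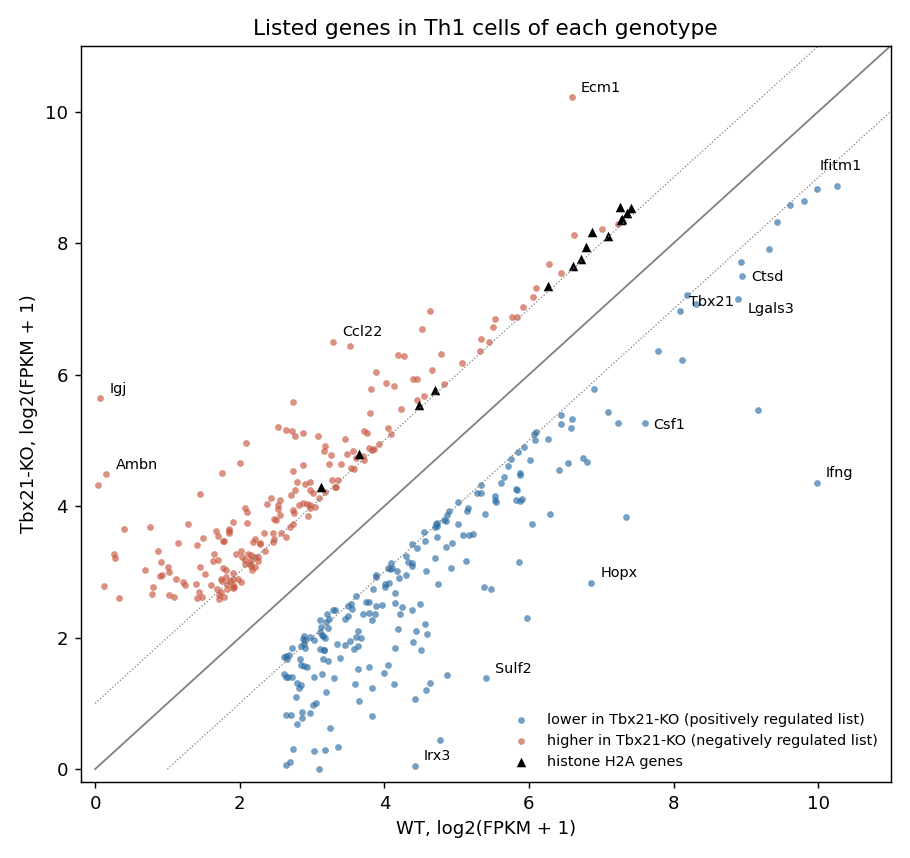
Each point is a listed gene, with its WT level on the x axis and its Tbx21-KO level on the y axis, both as log2(FPKM + 1); the solid line marks equal levels and the dotted lines a 2-fold difference. The 15 histone H2A genes (triangles) lie along the upper dotted line, with a median difference of 1.09, while Irx3 and Igj lie far from both lines.

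Median differences are given by expression level, for which genes were split by the mean FPKM of both genotypes. In its higher genotype, the lowest listed gene stood at 5.11 FPKM on the positive and 5.02 FPKM on the negative list. A gene with a mean below 5 FPKM was therefore always below 5 FPKM in its other genotype. The authors also chose the genes by their difference, so the medians are shaped by that choice and show no independence from level. Below 5 FPKM there were 43 positive genes with a median difference of -1.57 and 45 negative genes with a median of 1.26. From 5 to 20 FPKM the lists held 102 and 103 genes, with medians of -1.38 and 1.28. From 20 to 100 FPKM they held 57 and 44 genes, with medians of -1.39 and 1.38. At 100 FPKM or more they held 17 and 19 genes, with medians of -1.40 and 1.12. The most strongly expressed negative genes were mainly histones, since 11 of those 19 genes encode H2A. Among the 17 most strongly expressed positive genes, 7 belonged to the Th1, Th2, cytotoxic and NK receptor lists.

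Outside those classic lists, which took 36 positive and 14 negative genes, 380 genes remained, 183 of them positive and 197 negative. Their median differences were -1.34 and 1.25. Differences of at least 4-fold were found in 28 of the 183 and 31 of the 197 genes. Each gene was placed by the known function of its product, and 50 genes stayed unplaced. Positive genes made 50.9% of all 430. List membership chose the genes and the products were grouped with the values known, so the counts of lower and higher genes per group below are descriptions, and no lean of a group was tested.

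**Figure D2:**
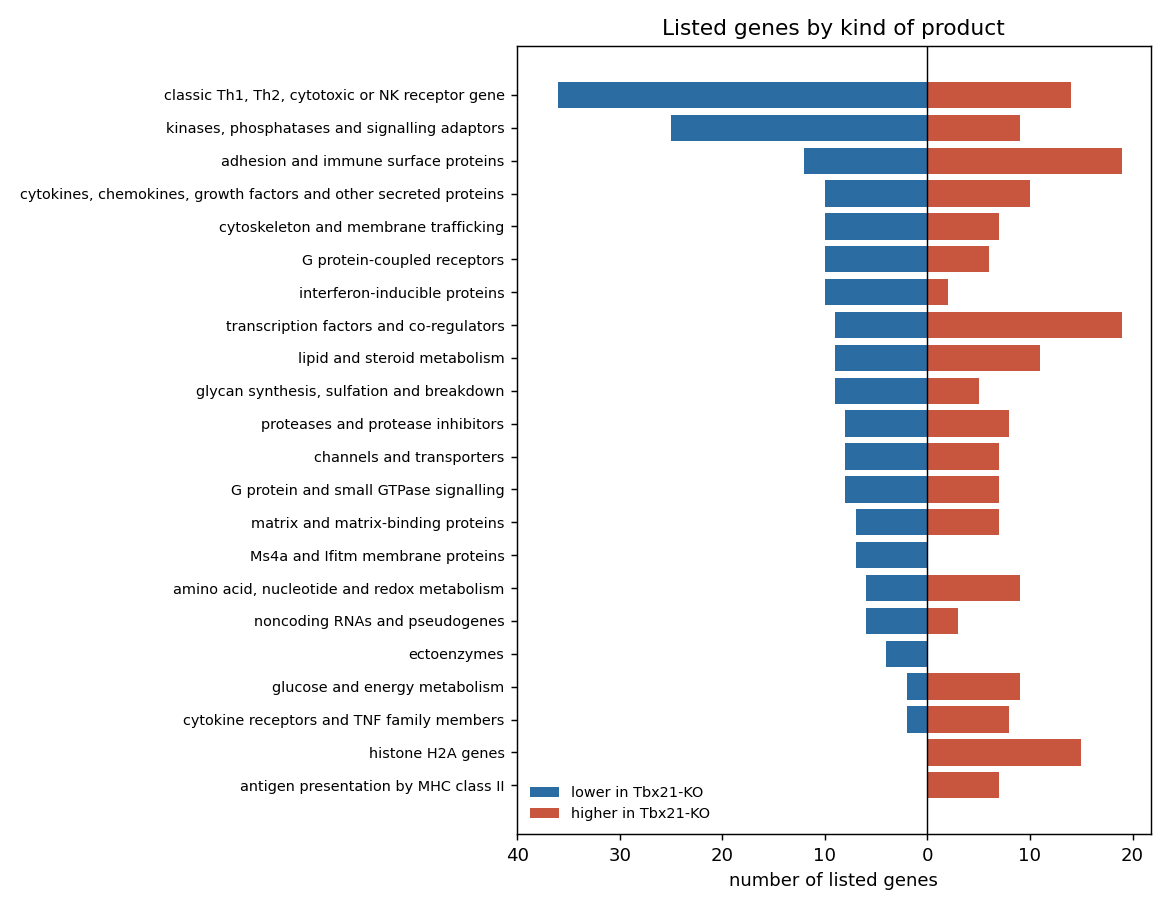
Bars give the number of listed genes lower (left, blue) and higher (right, red) in Tbx21-KO for each kind of product, with 50 unplaced genes left out. The kinases, phosphatases and adaptors extend furthest to the left among the non-classic groups, with 25 genes, and the H2A genes and MHC class II genes lie only on the right, with 15 and 7 genes.

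**Figure D3:**
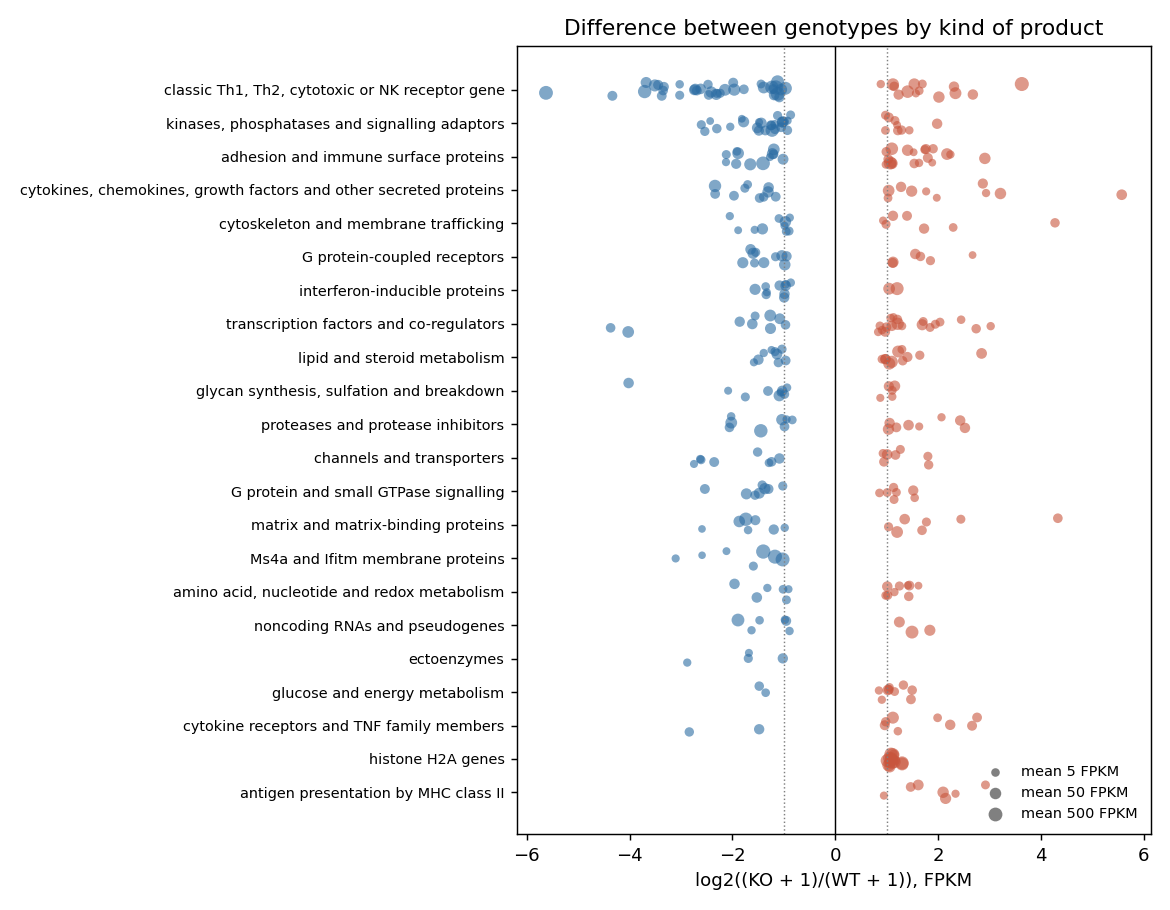
Each point is a listed gene, the x axis gives log2((KO + 1)/(WT + 1)) of its FPKM values, and the size of the point gives its mean level; dotted lines mark a 2-fold difference. Most groups hold genes of both lists, and the widest differences outside the classic genes are those of Igj at 5.57, Irx3 at -4.37, Ambn at 4.33 and Cav3 at 4.27.

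Enzymes of glucose and energy metabolism counted 2 genes lower and 9 higher in Tbx21-KO, or 18.2% lower, and the median difference of the higher ones was 1.05. These enzymes carry carbon through glycolysis, the mitochondria and glycogen, which activated T cells use for growth. Pck2, the mitochondrial phosphoenolpyruvate carboxykinase, stood at 5.80 FPKM in WT and 17.9 FPKM in Tbx21-KO, a difference of 1.47. Pcx, the pyruvate carboxylase that supplies the substrate of that enzyme, stood at 6.83 and 15.1 FPKM. Both enzymes of this step toward phosphoenolpyruvate were thus higher in the knockout.

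Chchd10, a protein of the mitochondrial intermembrane space, had the highest level of the group, 14.1 FPKM in WT and 29.8 FPKM in Tbx21-KO. Clybl, a mitochondrial enzyme that clears citramalyl-CoA, had the largest difference, from 4.75 to 15.2 FPKM. Ldhb, the lactate dehydrogenase subunit of oxidative tissues, stood at 3.33 and 8.63 FPKM, and Ckmt1, the mitochondrial creatine kinase, at 3.19 and 7.70 FPKM. All of these were weakly to moderately expressed, and 8 of the 9 had a mean under 20 FPKM. Gbe1, the glycogen branching enzyme, stood at 2.56 and 5.66 FPKM. The glycogen-targeting subunits of protein phosphatase 1 went opposite ways: Ppp1r3b was lower in Tbx21-KO, at 4.64 against 14.7 FPKM, and Ppp1r3f was higher, at 5.74 against 2.74 FPKM. Me1, the cytosolic malic enzyme, was the other gene lower in the knockout, at 2.51 against 7.97 FPKM. Counts of coding symbols, here and for the groups below, come from separate symbol lists that do not hold the same genes as the groups. Of 98 protein-coding symbols of glucose and energy metabolism, 1 was positive, 3 were negative and 94 were unlisted. Of the group above, only Me1, Gbe1, Ldhb and Pck2 were among these symbols. That is 4.08% listed, against 1.90% of all 21900 coding symbols. Those symbols were not limited to genes expressed in these cells, while every listed gene reached at least 5.02 FPKM in 1 genotype. A share above 1.90%, here or below, therefore shows no enrichment of a family.

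Lipid and steroid enzymes were divided, with 9 genes lower and 11 higher in Tbx21-KO and medians of -1.17 and 1.22. The higher ones stood at higher levels, with a median mean level of 16.8 FPKM against 7.66 FPKM for the lower ones. All 3 listed members of the Akr1c family of aldo-keto reductases, which reduce steroids and related carbonyls, were higher in the knockout. Akr1c13 stood at 55.8 and 117 FPKM, Akr1c12 at 44.4 and 105 FPKM, and Akr1c18, the 20-alpha-hydroxysteroid dehydrogenase that inactivates progesterone, at 5.69 and 47.1 FPKM. The Akr1c18 difference of 2.84 was the largest of the group. The family members are similar in sequence, so reads can be shared among them and their single values are uncertain.

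Gm2a, the activator protein that presents ganglioside GM2 for breakdown in lysosomes, stood at 59.7 FPKM in WT and 129 FPKM in Tbx21-KO. Enzymes that degrade endocannabinoids were both higher in the knockout: Faah, the fatty acid amide hydrolase, at 12.2 and 24.9 FPKM, and Mgll, the monoacylglycerol lipase, at 8.46 and 24.0 FPKM. Hsd17b11, a hydroxysteroid dehydrogenase of lipid droplets, stood at 3.78 and 7.97 FPKM. On the positive list were Lss, the lanosterol synthase of cholesterol synthesis, at 39.3 and 17.4 FPKM, and Ugcg, which makes glucosylceramide, at 29.6 and 9.85 FPKM. Osbpl8, an oxysterol-binding protein, stood at 16.1 and 7.77 FPKM. Hsd11b1, which regenerates active glucocorticoid, was also lower in the knockout, at 3.89 against 10.0 FPKM, as was Sult2b1, a sulfotransferase of cholesterol, at 1.92 against 6.65 FPKM. Both listed members of the phospholipase D family, Pld2 and Pld4, were lower in the knockout, with differences of -1.24 and -1.58. Of 386 coding symbols of lipid and sterol metabolism, 6 were positive and 5 negative, or 2.85% listed.

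Amino acid, nucleotide and redox enzymes counted 6 genes lower and 9 higher in Tbx21-KO. The lower ones included enzymes of nucleotide breakdown. Upp1, the uridine phosphorylase, stood at 34 FPKM in WT and 8.02 FPKM in Tbx21-KO, a difference of -1.96. Xdh, the xanthine dehydrogenase that makes uric acid in purine breakdown, stood at 33.1 and 10.8 FPKM. The nucleoside transporter genes Slc28a2 and Gm14085 (Slc28a2b in RefSeq) were lower too, at 12.7 against 28 FPKM and at 5.82 against 15.1 FPKM. In glutathione turnover, Ggt1 and Ggct, which cleave extracellular glutathione and its gamma-glutamyl product, were lower in the knockout, with differences of -0.91 and -0.95. Chac1, which cleaves glutathione inside the cell, was higher, at 6.44 against 2.35 FPKM. Of the enzymes acting on arginine, Arg1, the arginase, stood at 1.63 and 6.01 FPKM, and Gatm, which starts creatine synthesis, at 3.76 and 8.41 FPKM. Aldh2, the mitochondrial aldehyde dehydrogenase, stood at 6.45 and 19.2 FPKM, Osgin1, an oxidative stress-induced growth inhibitor, at 4.78 and 14.6 FPKM, and Selm, a selenoprotein of the endoplasmic reticulum, at 13.4 and 28.1 FPKM. Adc (Azin2 in RefSeq), an antizyme inhibitor of polyamine metabolism, had the largest difference of these, 1.62, but only 1.04 FPKM in WT. Of 117 coding symbols of amino acid, nucleotide and one-carbon metabolism 2 were positive and 2 negative, or 3.42% listed. Of 107 symbols of redox, detoxification and metal handling 1 was positive and 0 were negative, or 0.935% listed.

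Enzymes that build, sulfate or degrade glycans counted 9 genes lower and 5 higher in Tbx21-KO, or 64.3% lower. Proteoglycans carry chains of chondroitin, dermatan or heparan sulfate, whose sulfate pattern sets which proteins they bind. Chsy1, which polymerises chondroitin, stood at 67.1 FPKM in WT and 31.0 FPKM in Tbx21-KO. Chst11, which adds 4-O-sulfate to chondroitin, stood at 17.5 and 6.47 FPKM, and Ust, a uronyl 2-O-sulfotransferase, at 6.48 and 2.59 FPKM. Arsb, the lysosomal sulfatase that removes 4-sulfate from chondroitin and dermatan sulfate, stood at 25.6 and 12 FPKM. Sulf2, an extracellular sulfatase acting on heparan sulfate, had the widest difference of the group, -4.02, from 41.3 to 1.61 FPKM.

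Acpl2 (Pxylp1 in RefSeq), a phosphatase of the proteoglycan linker, stood at 6.50 and 2.92 FPKM. Core proteins that carry such chains lay on both lists, with Vcan and Esm1 lower and Sdc3, the heparan sulfate proteoglycan syndecan-3, and Col18a1 higher in the knockout. Sdc3 stood at 4.55 and 10.4 FPKM. Gcnt1, which builds core 2 O-glycans, stood at 6.25 and 0.711 FPKM, and Galnt3, which starts O-glycans, at 10.9 and 2.55 FPKM. In the other direction, all 3 listed sialyltransferase genes were higher in the knockout. St6gal1, which adds alpha-2,6-linked sialic acid to N-glycans, stood at 10.6 and 22.9 FPKM, St6galnac2 at 3.46 and 8.60 FPKM, and St8sia4, which makes polysialic acid, at 2.51 and 6.57 FPKM. Their differences lay between 1.04 and 1.11. Members with small differences would be missing from the lists, so this range is no trait of the family. Glb1, the lysosomal beta-galactosidase, was the most strongly expressed glycan gene on the negative list, at 20.9 and 47.8 FPKM. Of 204 coding symbols of glycosyltransferases and sulfotransferases, 6 were positive and 4 negative, or 4.90% listed.

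**Figure D4:**
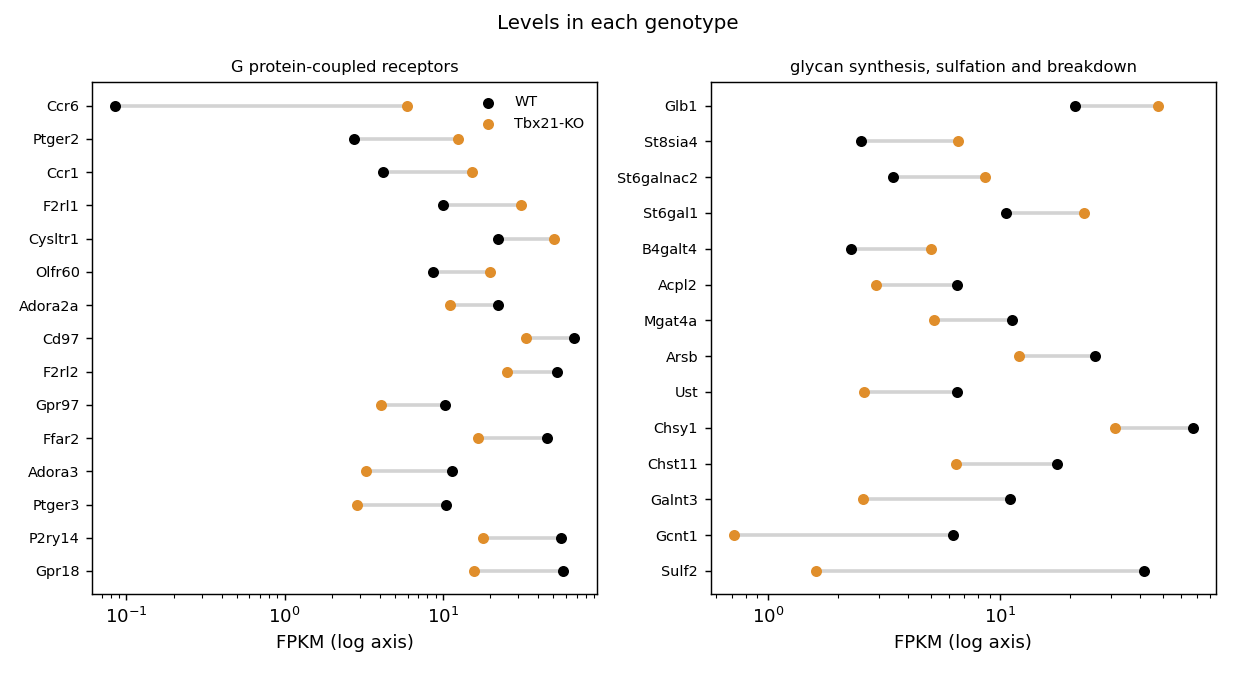
Each row is a gene, the black point gives its WT and the orange point its Tbx21-KO level in FPKM on a log axis, and genes are ordered by the difference, with receptors on the left and glycan enzymes on the right. The plotted receptors lower in Tbx21-KO had WT levels between 10.3 and 67.7 FPKM, and Sulf2 shows the widest gap among the glycan genes.

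G protein-coupled receptors counted 10 genes lower and 6 higher in Tbx21-KO, beside the chemokine receptors Cxcr3, Ccr4 and Ccr8 of the classic lists. Of 254 coding symbols of this receptor family 10 were positive and 7 negative, or 6.69% listed. The lower ones were more strongly expressed, with a median mean level of 27.4 FPKM against 12 FPKM. Gpr18, a receptor for N-arachidonyl glycine, stood at 57.5 FPKM in WT and 15.8 FPKM in Tbx21-KO, the widest difference of the 10 at -1.80. P2ry14, the receptor for UDP-glucose, stood at 56.2 and 17.9 FPKM, and Ffar2, the receptor for short-chain fatty acids, at 45.4 and 16.7 FPKM.

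Both listed adenosine receptor genes were lower in the knockout, Adora2a at 11.2 against 22.4 FPKM and Adora3 at 3.27 against 11.5 FPKM. So were adhesion receptors with long extracellular parts, among them Cd97 at 33.8 against 67.7 FPKM and Gpr97 (Adgrg3 in RefSeq) at 4.05 against 10.3 FPKM. In a pair of receptor families the members went opposite ways. Of the prostaglandin E2 receptors, Ptger3, which couples to Gi, stood at 10.5 FPKM in WT and 2.86 FPKM in Tbx21-KO, while Ptger2, which couples to Gs, stood at 2.74 and 12.5 FPKM. Ptger3 was thus the higher of the pair in WT and Ptger2 in Tbx21-KO. Of the protease-activated receptors, F2rl2 stood at 53.1 and 25.3 FPKM and F2rl1 at 10.0 and 31.3 FPKM. Cysltr1, a receptor for cysteinyl leukotrienes, stood at 22.5 and 50.1 FPKM, and Ccr1, a receptor for CCL3 and CCL5, at 4.17 and 15.3 FPKM. Olfr60, an olfactory receptor gene, stood at 8.68 and 20.0 FPKM. Ccr6 was near 0 in WT, at 0.0853 FPKM, and reached 5.90 FPKM in Tbx21-KO.

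Cytokine receptors and TNF family members outside the classic lists counted 2 genes lower and 8 higher in Tbx21-KO, or 20.0% lower. The common beta chains of the GM-CSF, IL-3 and IL-5 receptors showed the widest differences on the negative side, with Csf2rb at 2.99 FPKM in WT and 24.2 FPKM in Tbx21-KO and Csf2rb2, the IL-3-specific form of mice, at 2.37 and 21.7 FPKM. These neighbouring genes are close copies, so reads can be shared between them. Il1r2, a decoy receptor for IL-1, stood at 6.37 and 33.7 FPKM. Tnfrsf8, which encodes CD30, was the most strongly expressed, at 53.2 and 117 FPKM, and the TNF ligand gene Tnfsf14 stood at 9.10 and 18.7 FPKM. Il9r, the IL-9 receptor, Il17re, a receptor for IL-17C, and Ifngr2, the second chain of the interferon-gamma receptor, were also higher in the knockout. Lower in the knockout were Il6st, the shared signal chain of IL-6 family cytokines, at 9.35 against 27.8 FPKM, and Tnfsf4, which encodes OX40 ligand, at 1.45 against 16.5 FPKM.

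Secreted cytokines, growth factors and related proteins were evenly divided, 10 lower and 10 higher. Csf1, the growth factor of macrophages, was the most strongly expressed, at 193 FPKM in WT and 37.4 FPKM in Tbx21-KO, and Csf2, which encodes GM-CSF, stood at 31.4 and 12.2 FPKM. GM-CSF transcript was thus lower and that of its receptor's beta chain higher in the knockout. Fam20a, a pseudokinase of the secretory pathway, stood at 63.6 and 25.1 FPKM. Hbegf, an EGF receptor ligand, Gdf11, a TGF-beta family member, Clcf1, an IL-6 family cytokine, and Vash1, which limits vessel growth, had WT levels between 9.51 and 17.1 FPKM and differences between -1.70 and -1.16. C1qtnf6, a C1q and TNF-related protein, stood at 20.7 and 3.29 FPKM, a difference of -2.34. On the negative list, Ccl22, a ligand of the receptor CCR4, stood at 8.78 and 89.5 FPKM, and Lif at 39.1 and 81.3 FPKM. Ebi3, a subunit of IL-27 and IL-35, stood at 20.8 and 60.0 FPKM.

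The neuronal growth protein gene Nrn1 stood at 3.25 and 30.0 FPKM, and Nts, which encodes the peptide neurotensin, at 0.210 and 8.23 FPKM. Among all listed genes only Ifng, at -5.62, exceeded the difference of Igj, 5.57 from 0.0506 to 48.9 FPKM. Igj encodes the chain that joins antibody monomers. The antibody secretion factor 2010001M09Rik (Mzb1 in RefSeq) stood at 0.313 and 11.6 FPKM, and Derl3, a protein of endoplasmic reticulum quality control, at 0.903 and 6.73 FPKM. Of 281 coding symbols of cytokines, growth factors and hormones, 16 were positive and 13 negative, or 10.3% listed, with the classic cytokines included.

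Matrix and matrix-binding proteins counted 7 genes on each list, with medians of -1.69 and 1.69. Lgals3, the glycan-binding lectin galectin-3, had the highest level, 475 FPKM in WT and 142 FPKM in Tbx21-KO. Spp1, which encodes osteopontin, stood at 84.4 and 22.4 FPKM, and Emilin2, an elastin microfibril protein, at 22.8 and 7.09 FPKM. Esm1, a secreted dermatan sulfate proteoglycan, stood at 25.5 and 10.6 FPKM, and Vcan at 7.80 and 1.72 FPKM. Sparc, which binds collagen, was lower in the knockout by a smaller difference, -0.98. Col6a1, a collagen VI chain, was at 5.49 FPKM in WT and near 0 in Tbx21-KO, at 0.0770 FPKM.

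Higher in the knockout were Lama5, a laminin chain of basement membranes, at 91.8 against 39.3 FPKM, and Igfbp7, a secreted binder of insulin-like growth factors, at 33.7 against 12.6 FPKM. Col18a1, the collagen that yields endostatin, stood at 2.62 and 11.3 FPKM, Nov (Ccn3 in RefSeq), a matricellular protein, at 4.41 and 16.4 FPKM, and Adamtsl4 at 1.44 and 12.2 FPKM. Ambn, the enamel protein ameloblastin, went with the genes near 0 in WT, at 0.115 FPKM, and stood at 21.4 FPKM in Tbx21-KO. The listed collagen chains, Col6a1 and Col18a1, thus lay on different lists. The fixed list of collagens and other matrix proteins had 4 positive and 6 negative members, Ecm1 of the Th2 list among them. Of its 145 current coding symbols 136 were on neither list, and Nov was counted by its older symbol.

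Proteases and their inhibitors were split evenly, 8 genes on each list. Ctsd, the lysosomal aspartic protease cathepsin D, stood at 493 FPKM in WT and 180 FPKM in Tbx21-KO, the highest level of the group. Ctss, the cathepsin that trims the invariant chain of MHC class II, stood at 27.3 and 57.0 FPKM, Lgmn, an asparaginyl endopeptidase of lysosomes, at 7.10 and 17.5 FPKM, and Napsa, an aspartic protease, at 12.1 and 26.2 FPKM. Of the serpins, which block serine proteases, 5 of 6 listed genes were lower in the knockout, counting Serpinb9 and Serpinf1 of the classic lists. Serpine2, which inhibits thrombin and plasminogen activators, stood at 106 and 25.4 FPKM and Serpina3f at 60.0 and 28.7 FPKM, while Serpinf1 was the exception at 2.11 and 8.65 FPKM. Mmp9, a gelatin-degrading metalloprotease, stood at 17.2 and 3.38 FPKM. Both listed stefin-like inhibitor genes of cysteine proteases, Gm5483 (Cstdc4 in RefSeq) and 2010005H15Rik (Csta2), were higher in the knockout and near-equal in level, at 34.8 and 34.4 FPKM against 5.24 and 5.58 FPKM. They are similar copies that can share reads. Slpi, a secreted inhibitor of leukocyte elastase, stood at 1.01 and 7.42 FPKM, and Cpd, a carboxypeptidase of the secretory pathway, at 12.1 and 34.2 FPKM.

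Kinases, phosphatases and adaptors counted 25 genes lower and 9 higher in Tbx21-KO, or 73.5% lower. Pim2, a serine/threonine kinase that promotes survival, was by far the most strongly expressed, at 315 FPKM in WT and 134 FPKM in Tbx21-KO. Fes, a cytoplasmic tyrosine kinase, stood at 58.6 and 16.3 FPKM, and Nedd9, a docking protein of integrin signalling, at 56.8 and 27.4 FPKM. Pak6, a p21-activated kinase, had the widest difference of the kinases, -2.60, from 13.2 to 1.34 FPKM, followed by the tyrosine phosphatase gene Ptpn5 at -2.54.

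Several proteins that restrain receptor signals were among them. Lax1 and Pag1, adaptors that dampen antigen receptor signals, stood at 18.8 and 6.71 FPKM and at 16.2 and 7.30 FPKM. Dusp2, a phosphatase of MAP kinases, stood at 27.3 and 12.8 FPKM, Errfi1, an inhibitor of EGF receptors, at 8.02 and 2.99 FPKM, and Tnfaip3, which ends NF-kappaB signals, at 13.8 and 6.77 FPKM. Adaptors that carry signals were lower in the knockout as well, among them Sh3bp2 at 8.27 against 25 FPKM and Clnk at 0.773 against 5.24 FPKM, and so was Nod1, a sensor of bacterial peptidoglycan, at 0.234 against 5.66 FPKM. The PI3-kinase regulators were divided: Pik3r5, the regulatory subunit of the gamma form, stood at 28.3 and 13.6 FPKM and the adaptor gene Pik3ap1 at 10.8 and 4.42 FPKM, while Pik3r2, the p85-beta subunit, was higher in the knockout, at 9.84 against 3.85 FPKM.

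The 9 signalling genes higher in the knockout were weakly expressed in WT, all below 10 FPKM. Hipk2, a nuclear kinase, had the widest difference, 1.98, from 7.45 to 32.4 FPKM. Irs2, the insulin receptor substrate, stood at 8.05 and 17.6 FPKM, Trib3, a pseudokinase induced by stress, at 4.67 and 12.9 FPKM, and Map2k6, an activator of p38, at 1.65 and 5.10 FPKM. Pmepa1 and D18Ertd653e (Ldlrad4 in RefSeq), related membrane proteins that restrain TGF-beta signals, stood at 5.65 and 14.4 FPKM and at 1.88 and 6.81 FPKM. Eif4ebp1, the repressor of cap-dependent translation that mTOR phosphorylates, was higher too, at 114 against 45.0 FPKM. Of 320 coding symbols of protein and lipid kinases 8 were positive and 5 negative, or 4.06% listed. Of 198 symbols of phosphatases and their inhibitors 6 were positive and 1 was negative, or 3.54% listed.

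Small GTPases and their regulators were divided, 8 lower and 7 higher, but at different levels. The lower ones had a median mean level of 13.4 FPKM and the higher ones 6.01 FPKM. Among the GTPases themselves, Rras2, Gem, Rhoc and Rhoq were lower in the knockout and Ralb was higher. Rras2 stood at 55.5 FPKM in WT and 16.1 FPKM in Tbx21-KO, Gem at 45.7 and 15.8 FPKM and Rhoc at 19.9 and 7.50 FPKM, against 3.09 and 8.32 FPKM for Ralb. The exchange factors for Rac went opposite ways: Prex1 stood at 57.5 and 21.6 FPKM and Tiam1 at 8.55 and 26.3 FPKM. Their log2 differences were -1.37 and 1.52. Dennd4a, an exchange factor of Rab proteins, had the widest difference, -2.53, from 23.0 to 3.14 FPKM. Arhgef11, which activates RhoA, stood at 2.08 and 7.99 FPKM, Pde6d, a carrier of prenylated GTPases, at 4.48 and 11.0 FPKM, and Als2cl at 3.88 and 9.77 FPKM.

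Adhesion and immune surface proteins counted 12 genes lower and 19 higher in Tbx21-KO, or 38.7% lower. Ly6c2, a GPI-anchored surface protein, had the highest level, 635 FPKM in WT and 239 FPKM in Tbx21-KO. Prnp, which encodes the prion protein, stood at 135 and 42.3 FPKM, Sema4a at 92.2 and 24.2 FPKM, and Icam1, the ligand of LFA-1, at 86.1 and 37.1 FPKM. Amica1 (Jaml in RefSeq), a junctional adhesion molecule, stood at 25.9 and 6.07 FPKM.

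All 3 listed integrin chains were higher in the knockout. Itgb7, the beta chain of the gut-homing integrin, stood at 149 and 313 FPKM, its partner Itga4 at 0.877 and 7.86 FPKM, and Itga7, a laminin receptor chain, at 1.72 and 7.41 FPKM. The tetraspanin gene Cd81 had the widest difference of the surface proteins, 2.91, from 10.6 to 85.8 FPKM, and Tspan32 stood at 6.31 and 23.8 FPKM. Trat1, an adaptor that stabilises the T cell receptor at the membrane, stood at 22 and 103 FPKM, Tmem176a at 86.2 and 186 FPKM, and Aplp2 at 32.7 and 71.3 FPKM. Both sides of an inhibitory pair, Cd200 and its receptor Cd200r1, were higher in the knockout, at 5.13 against 1.13 FPKM and 16.5 against 7.56 FPKM. Ctla4, an inhibitory receptor of T cells, stood at 24.4 and 66.3 FPKM, and Folr4 (Izumo1r in RefSeq), a surface protein of regulatory T cells, at 5.69 and 22.3 FPKM. Foxp3, the transcription factor that defines those cells, stood at 1.73 and 17.3 FPKM. The share of regulatory T cells in the cultures was not tested. Of 306 coding symbols of integrins and adhesion molecules 3 were positive and 6 negative, or 2.94% listed.

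The 4 genes grouped as ectoenzymes and the 7 genes grouped as Ms4a and Ifitm membrane proteins were on the positive list. By the wider fixed lists, ectoenzymes had 5 positive and 0 negative members, and Ms4a, Ifitm and related membrane proteins had 8 positive members and 1 negative, Tmem176a. Entpd1, the CD39 enzyme that removes phosphate from extracellular ATP, stood at 24.9 and 11.8 FPKM, and Enpp4 at 11.9 and 2.98 FPKM. Bst1 and Cd38, which cleave NAD, stood at 8.03 and 0.229 FPKM and at 5.84 and 1.14 FPKM. The transcript 1700025F22Rik, which RefSeq names Ms4a19, was listed at 0 in Tbx21-KO, and with Ms4a7 and Ms4a8a it made 3 tetraspanning Ms4a genes with differences between -3.10 and -2.11. Their WT levels were low, between 5.26 and 7.59 FPKM. The interferon-induced Ifitm1, Ifitm2 and Ifitm3, which block virus entry, were among the most strongly expressed of all listed genes, at 1228, 777 and 895 FPKM in WT and 465, 382 and 397 FPKM in Tbx21-KO. Ifitm7 stood at 11.2 and 3.04 FPKM. Ifitm genes are similar in sequence, so their single values are uncertain.

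Channels and transporters were divided, 8 lower and 7 higher, and the widest differences lay on the lower side. Kcnj8, an ATP-sensitive potassium channel, stood at 7.12 FPKM in WT and 0.210 FPKM in Tbx21-KO, Slc24a3, a sodium, potassium and calcium exchanger, at 8.48 and 0.537 FPKM, and P2rx3, an ATP-gated channel, at 11.6 and 1.06 FPKM. Atp8b4, a phospholipid-transporting ATPase, stood at 22.6 and 3.63 FPKM. On the other side, Gja1, the gap junction protein connexin 43, stood at 3.29 and 14.1 FPKM, Slc7a8, an amino acid transporter, at 2.59 and 11.5 FPKM, and Itpr2, a calcium channel of the endoplasmic reticulum, at 16 and 33.2 FPKM. Ccdc109b (Mcub in RefSeq), a regulator of the mitochondrial calcium uniporter, stood at 7.21 and 14.8 FPKM, and Slc25a23, a mitochondrial carrier of ATP-Mg, at 6.35 and 15.6 FPKM. Abcg1, which exports sterols, stood at 3.54 and 9.92 FPKM. Of 437 coding symbols of solute carriers and ABC transporters 4 were positive and 3 negative, or 1.60% listed, under the 1.90% of all coding symbols.

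The 7 listed genes of MHC class II presentation were all higher in Tbx21-KO, with differences between 0.95 and 2.92. Cd74, the invariant chain, stood at 17.3 and 77.4 FPKM, H2-Ab1 at 13.8 and 64.6 FPKM, and H2-DMa, a chain of the peptide-loading protein, at 12.9 and 41.5 FPKM. H2-Aa was near 0 in WT, at 0.697 FPKM, and stood at 11.8 FPKM in Tbx21-KO. These genes belong in part to the antigen-presenting cell markers given above. Their source among the cultured cells was not tested.

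Cytoskeletal and trafficking proteins counted 10 lower and 7 higher. Sytl3, a Rab27 effector of granule transport, stood at 65.9 and 33.1 FPKM, Anxa1, a membrane-binding annexin, at 58.0 and 21.1 FPKM, and Actn1, an actin cross-linker, at 8.93 and 4.33 FPKM. Higher in the knockout were Basp1 at 29.1 against 8.09 FPKM, Enah, which elongates actin filaments, at 25.6 against 11.2 FPKM, and Ermn at 19.5 against 6.81 FPKM. Cav3, the caveolin of muscle cells, was near 0 in WT, at 0.0307 FPKM, and stood at 18.9 FPKM in Tbx21-KO.

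Transcription factors and co-regulators outside the classic lists counted 9 genes lower and 19 higher in Tbx21-KO, or 32.1% lower. The balance turned with expression level: among the 14 with a mean of at least 10 FPKM, 8 were lower and 6 higher, or 57.1% lower. The lower ones had a median mean level of 23.0 FPKM and the higher ones 6.26 FPKM. Hopx, an unusual homeodomain protein, stood at 115 and 6.13 FPKM and Irx3 at 20.4 and 0.0372 FPKM, while Irf8, a factor of interferon responses, stood at 95.5 and 39.2 FPKM and Zbtb32, a zinc finger repressor, at 48.1 and 19.5 FPKM. Thra, a receptor for thyroid hormone, was higher in the knockout, at 7.36 against 2.40 FPKM. Cited2, a co-regulator that binds CBP and p300, had the highest level on this side, 67.6 and 158 FPKM, and Tcf7 and Cebpb stood at 16.6 and 55.7 FPKM and at 12.8 and 28.6 FPKM. Pou2af1, a coactivator of B cells, had the widest difference of the negative factors, 3.02. Of 12 interferon-inducible genes 10 were lower in the knockout, Epsti1 at 18.1 against 55.3 FPKM and the HIN-200 genes Mnda (Ifi211 in RefSeq) and Pyhin1 (Ifi209) at 15.7 against 31.5 and 12.3 against 25.5 FPKM. Ifi27l2a and the GTPase gene Iigp1 were the exceptions, at 296 against 128 FPKM and 89.4 against 42.8 FPKM.

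The listed histone H2A genes differed little among themselves in the size of their difference. All 15 listed histone genes encode H2A and were on the negative list, and 0 genes of H1, H2B, H3 or H4 were on either list. Their levels ran from 7.73 FPKM in WT and 18.5 FPKM in Tbx21-KO for Hist1h2aa to 170 and 370 FPKM for Hist1h2ad, and Hist1h2ap and Hist1h2ah stood at 152 and 375 FPKM and at 163 and 351 FPKM. Their differences had a minimum of 1.01, a median of 1.09 and an SD of 0.0856 over the 15 genes. Because the authors chose genes by their difference, H2A genes with small ones would be missing, which narrows this spread. RefSeq holds 17 coding genes named H2ac, of which 3 had no matched listed gene, and Hist1h2ap matched no RefSeq symbol. Replication-dependent histone genes are clustered copies with near-identical coding sequence, so reads can be shared among them and the 15 values are not independent. Most of their transcripts end without a poly(A) tail, and the libraries were made with an mRNA protocol, per the labels. Of 97 coding symbols of cell cycle and replication, 0 were on either list, beside 1.90% of all coding symbols. At that share few of the 97 would be listed, so the 0 is no result about the cell cycle. The part of library preparation or proliferation in this result was not tested.

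Promoters of the H2A genes are shown because all 15 listed ones were higher in the knockout. RefSeq promoter windows of build GRCm38.p6, 300 bases around the start, mostly before it, were matched for 14 of the 15 genes. All 14 held the letters CCAAT on either strand, and 10 held TATAAA, against 37.4% and 13.6% of 32851 windows of the same length. The 3 windows below have these letters in capitals (on the opposite strand ATTGG and TTTATA), and come from chr13:23574131-23574430 on the plus strand, chr13:22035594-22035893 on the minus strand and chr3:96219635-96219934 on the plus strand.
Hist1h2ad: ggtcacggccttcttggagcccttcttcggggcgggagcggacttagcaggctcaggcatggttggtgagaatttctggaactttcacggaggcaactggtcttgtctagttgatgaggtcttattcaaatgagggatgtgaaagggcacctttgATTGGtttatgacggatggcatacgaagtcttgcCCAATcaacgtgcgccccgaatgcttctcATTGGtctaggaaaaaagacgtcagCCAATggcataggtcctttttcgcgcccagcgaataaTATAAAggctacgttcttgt
Hist1h2ah: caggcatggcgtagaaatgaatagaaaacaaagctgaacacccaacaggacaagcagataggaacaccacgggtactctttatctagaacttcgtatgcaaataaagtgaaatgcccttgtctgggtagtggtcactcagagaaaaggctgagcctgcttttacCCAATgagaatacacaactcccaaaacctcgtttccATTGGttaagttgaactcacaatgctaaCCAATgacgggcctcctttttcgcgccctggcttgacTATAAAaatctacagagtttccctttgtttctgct
Hist2h2ab: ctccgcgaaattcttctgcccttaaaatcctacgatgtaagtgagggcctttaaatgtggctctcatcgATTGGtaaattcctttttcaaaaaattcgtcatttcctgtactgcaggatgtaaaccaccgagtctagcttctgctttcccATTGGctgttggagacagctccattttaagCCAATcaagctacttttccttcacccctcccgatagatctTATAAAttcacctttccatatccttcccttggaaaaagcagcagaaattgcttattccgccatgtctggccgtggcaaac
The letters are a description and not evidence of a bound factor.

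**Figure D5:**
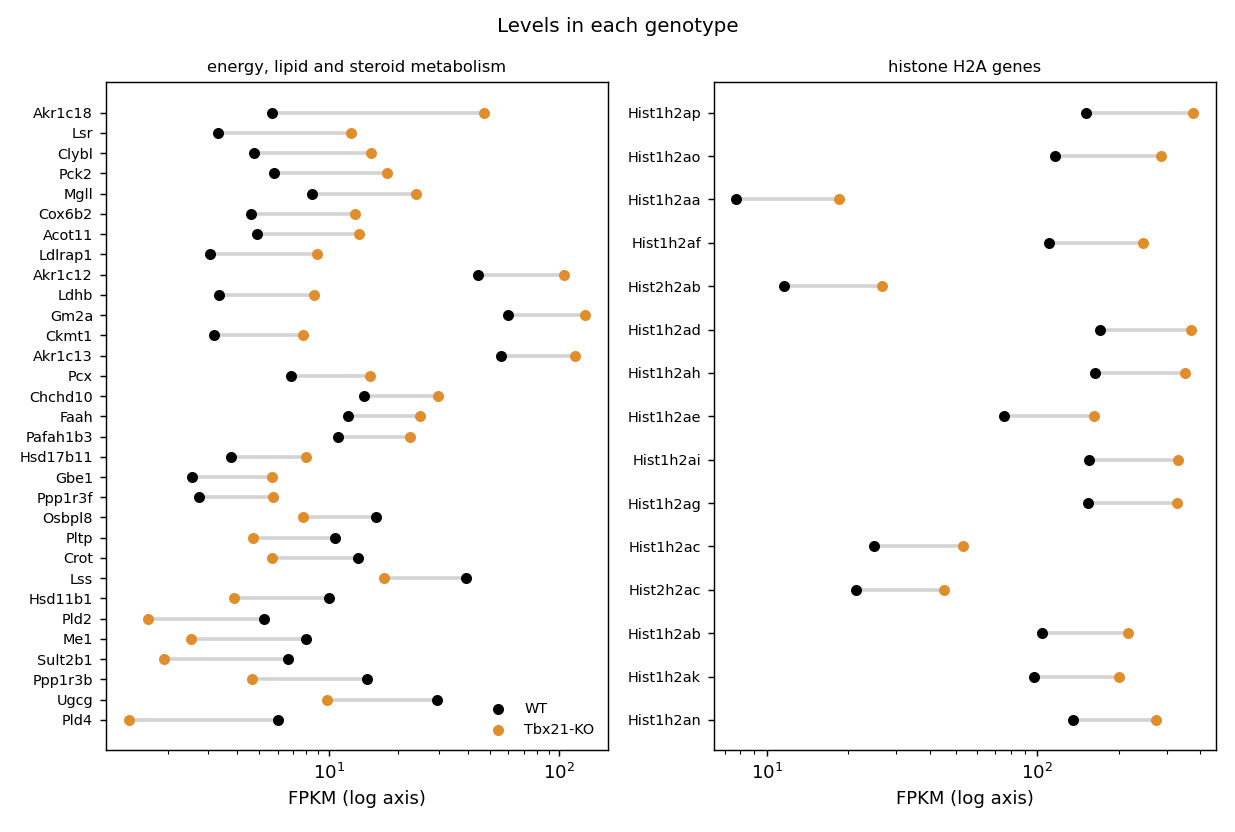
Each row is a gene, with its WT level (black) and Tbx21-KO level (orange) in FPKM on a log axis, ordered by the difference. On the left, enzymes of energy, lipid and steroid metabolism lie on both sides, with Akr1c18 the widest at 5.69 and 47.1 FPKM; on the right, the 15 H2A genes have gaps of nearly equal width over levels from 7.73 to 375 FPKM.

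Noncoding transcripts and pseudogenes made 6 positive and 3 negative entries, and several of them overlap other listed genes. In the RefSeq annotation 8 pairs of listed genes overlap, and both members were on the same list in all 8. The microRNA gene Mir147 overlaps AA467197, and both were lower in the knockout, at 73.6 against 276 FPKM and 81.2 against 218 FPKM. Mir5107 overlaps Cd74, and both were higher, Mir5107 at 57.4 against 15.3 FPKM. The lncRNA gene Gm10684 overlaps Amica1, and 0610040F04Rik overlaps Bhlhe40, with both pairs lower in the knockout. No source used here says whether strand was used in the counting, so reads of overlapping genes cannot be told apart, and the value of a microRNA gene is no measure of the mature microRNA. Snord49a, a small nucleolar RNA gene, stood at 97.9 and 277 FPKM, AA465934 at 17.8 and 43.6 FPKM, and Bambi-ps1 at 7.88 and 2.20 FPKM. The Mir147 hairpin is shown because it falls inside the AA467197 gene in RefSeq. It lies at chr2:122640803-122640881 of GRCm38.p6 on the plus strand, with miR-147-5p in capitals, followed by that mature sequence with its seed (bases 2 to 8) in capitals.
Mir147 hairpin: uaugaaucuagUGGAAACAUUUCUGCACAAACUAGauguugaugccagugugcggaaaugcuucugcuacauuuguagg
mmu-miR-147-5p: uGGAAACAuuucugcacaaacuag

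T-bet peaks and histone regions, which the authors assigned to the closest gene, were not used to choose the genes. By symbol, 97 of 219 positive genes were the closest gene of a T-bet peak, which is 44.3% (95% Clopper-Pearson limits 37.6 to 51.1), and 45 of 211 negative genes were, which is 21.3% (16 to 27.5). The share over all genes was not computed, so neither list can be placed above or below it. The limits treat genes as independent, which clustered copies such as the H2A genes are not. They measure no spread between libraries, and the difference between the lists was not tested. Assignment to the closest gene also depends on how genes are spaced, and its part in these shares was not tested. On the positive list the share was higher at higher expression, from 34.9% of 43 genes below 5 FPKM to 39.2%, 50.9% and 76.5% in the bins above. On the negative list it was 17.8%, 23.3%, 22.7% and 15.8%. Of the 17 positive genes at 100 FPKM or more, 13 had a peak and 0 had a listed H3K27me3 region.

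By kind of product, listed H3K4me1 regions, an enhancer mark, were found at 22 of the 25 positive signalling genes, at all 9 positive glycan genes and at 7 of the 8 positive channel and transporter genes. At the low end were the interferon-inducible genes with 3 of 10, lipid and steroid enzymes with 4 of 9, and noncoding transcripts with 1 of 6. Over the whole positive list the count was 150 of 219, and over the negative list 49 of 211. Chst11 had 19 such regions, Dennd4a 19, Prex1 17 and Sulf2 14. The histone lists name both genotypes but give 1 value per region, so a missing region does not mean that the mark is absent, and no direction can be read. On the negative list, T-bet peaks were assigned to 8 of 19 adhesion and surface genes, 3 of 7 genes of small GTPase signalling, 4 of 10 secreted proteins and 3 of 8 cytokine receptors. They were assigned to 1 of the 9 genes of glucose and energy metabolism, Ldhb, and to 0 of 15 H2A, 0 of 7 MHC class II and 0 of 7 matrix genes, against 21.3% of the whole list. Listed H3K27me3 regions, a mark of Polycomb repression, were found at 69 of 211 negative and 36 of 219 positive genes. For both histone marks the share over all genes was not computed, so neither list can be placed above or below it. On the negative list H3K27me3 regions were assigned to 5 of 7 cytoskeletal and 9 of 19 transcription factor genes. They were also assigned there to 1 of 15 H2A and 1 of 6 G protein-coupled receptor genes. On the positive list they were assigned to 6 of 9 transcription factor, 4 of 9 glycan and 3 of 10 cytoskeletal genes. Transcription factor genes thus often had such regions on both lists.

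T-box letters in promoters were looked for in the same RefSeq windows. The site AGGTGTGA on either strand was found in 4 of 238 windows of positive and 3 of 201 windows of negative genes, matched for 178 and 167 genes, which is 1.68% and 1.49%, against 1.28% of all windows, and its core GTGTGA, which the longer site contains, in 16.4%, 12.4% and 14.5%. The shares of the lists thus lay close to that of all windows. Shown as examples are 3 genes outside the classic lists that had both an assigned T-bet peak and the longer site in a window. The site is in capitals (TCACACCT is the same site on the other strand). Not every chromosome was searched for such genes, so 3 is no full count of them. Whether a peak lies on the site was not tested, since the peaks are given in mm9. The windows are chr3:88461133-88461432 for Sema4a, chr7:72306546-72306845 for Mctp2 and chr16:48772013-48772312 for Trat1, all on the minus strand of GRCm38.p6.
Sema4a: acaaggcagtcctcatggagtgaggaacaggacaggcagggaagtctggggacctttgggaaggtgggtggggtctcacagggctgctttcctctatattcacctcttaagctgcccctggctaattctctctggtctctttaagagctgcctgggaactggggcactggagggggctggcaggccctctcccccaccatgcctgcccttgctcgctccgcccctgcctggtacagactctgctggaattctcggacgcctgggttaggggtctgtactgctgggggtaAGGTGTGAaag
Mctp2: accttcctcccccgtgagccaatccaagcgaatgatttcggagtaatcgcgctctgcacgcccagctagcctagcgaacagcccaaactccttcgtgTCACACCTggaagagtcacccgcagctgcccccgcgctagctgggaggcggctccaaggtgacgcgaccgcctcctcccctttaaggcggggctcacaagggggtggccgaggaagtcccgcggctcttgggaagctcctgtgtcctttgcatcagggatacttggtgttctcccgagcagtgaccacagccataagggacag
Trat1: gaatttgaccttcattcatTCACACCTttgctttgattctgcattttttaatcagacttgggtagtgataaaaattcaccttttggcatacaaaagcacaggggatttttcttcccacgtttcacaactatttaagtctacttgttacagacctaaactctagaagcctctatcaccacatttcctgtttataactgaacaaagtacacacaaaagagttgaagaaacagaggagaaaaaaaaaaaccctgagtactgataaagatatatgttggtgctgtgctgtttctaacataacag
Sema4a and Mctp2, a calcium-binding membrane protein at 7.11 and 0.958 FPKM, were lower in the knockout, and Trat1 was higher, so that the site occurred in genes of both directions.

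Among the 50 unplaced genes, 21 were lower and 29 higher in Tbx21-KO. The most strongly expressed of the lower ones were AA467197, Dnajc15, a mitochondrial co-chaperone, at 118 and 53.7 FPKM, and Bcl2l1, the survival protein Bcl-xL, at 75.7 and 31.6 FPKM. Btg1, which restrains proliferation, stood at 51.6 and 23.4 FPKM. Among the higher ones Eif4ebp1, given above, had the highest level, Fam46a stood at 20.0 and 60.0 FPKM and 1190002H23Rik (Rgcc in RefSeq) at 13.1 and 53.9 FPKM. All 50 had differences between -1.99 and 3.26.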

How the data were processed

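RNA-seq of 2 WT and 2 Tbx21-KO libraries was used. The deposited lists give 1 FPKM value per gene and genotype, in which the authors combined the duplicates. Tools named in the submitters' processing notes, with no roles, were TopHat 1.3.3, Bowtie 0.12.7, DESeq, CASAVA 1.7 and MACS 1.4.1, with build mm9. No source used here states the authors' test. The authors' log2 ratio was not used. The region lists hold tag counts and a fold enrichment (a ratio) per region, with the closest gene, as deposited by the authors. Regions were matched to genes by that name.

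Differences are log2((KO + 1)/(WT + 1)). The calculation was checked on simulated data. With no values per library, no test was made. Named genes outside the classic lists were the 3 of highest mean FPKM and the 1 of widest difference per kind of product and list, all members of families of 4 or fewer, and genes chosen after their values were seen. The members and gene lists were chosen with earlier results of these data known; products were classified after the symbols and values were seen, and the cytokine list was then corrected to leave out 2 receptor genes. Symbols matched RefSeq (GRCm38.p6, used for names, overlaps and sequences) for 428 of 430 genes. Listed genes that are not named were counted only. Python 3.11.15, pandas 2.3.3, numpy 2.4.6 and SciPy 1.17.1 were used. Alternatives were a pseudocount of 0.1 or 5 FPKM, a mean of at least 10 FPKM, and T-bet peaks of at least 3-fold enrichment.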

Additional observations from a re-analysis of the deposited data

How the results depend on the processing

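A pseudocount cannot turn the direction of a gene by its construction. With 0.1 FPKM added, 214 genes were at least 2-fold lower and 210 higher in Tbx21-KO, with median differences of -1.58 (positive list) and 1.42 (negative list). With 5 FPKM added there were 114 and 100 such genes, with medians of -1.02 and 0.987. Among 232 genes with a mean of at least 10 FPKM there were 110 and 102, with medians of -1.39 and 1.22; fewer genes enter there by construction. Without the H2A genes, an alternative chosen after seeing the data, 165 genes were at least 2-fold higher and the negative median was 1.296. Counting only T-bet peaks of at least 3-fold enrichment, 24.2% of positive and 8.06% of negative genes had one. A median was called moved if it differed after rounding to 2 decimals, so that even a slight shift counted. By kind of product and list, 42 of 42 medians moved under each pseudocount and 37 of 41 under the level filter. No sign could change, because each median was taken within a list of 1 direction. Of 23 shares of positive genes under the level filter, 3 left their exact 95% interval: small GTPase signalling (83.3% lower, of 6 genes), glucose and energy metabolism (0%, of 3) and transcription factors (57.1%, of 14). No paired analysis was possible because the deposited values combine the duplicates, and no library could be left out for the same reason. Depth is unknown, and values near 0 limit the folds of genes absent from 1 genotype.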
